A study of Mus musculus with 2 samples.

Results

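Chromatin access was described at 10 mouse genes that act late in red cell formation, when the nucleus is pushed out and mitochondria, ribosomes and other organelles are cleared: Bnip3l, Ulk1, Foxo3, Trim10, Trim58, Ube2o, Xpo7, Map1lc3b, Gabarapl2 and Ube2l6. The genes were chosen by name for their known roles, with earlier results of these data known. They are 10 of the 21938 protein-coding genes of GENCODE vM21 on chromosomes 1 to 19, X and Y. For each gene, peaks within 1 kb of any annotated start (promoter peaks) and within 50 kb of the gene body were taken from the longer of the peak lists of each library, with the footprints inside them. The data are 2 DNase-seq libraries of liver of mouse embryos at day 13.5, replicates 1 and 2 of 1 group. On strain C57BL/6N,129, both bear the HET globin mutation and LCR deletion of the labels. Their biosamples differ but share 1 donor identifier, and sex was not collected. How far the deletion reaches, and each embryo's own genotype, the labels do not say. There was no control group, so no value below bears on the mutation. Liver is a mix of cells, so more open cells of a type and more cleavage per cell cannot be told apart.

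DNase I cuts DNA where nucleosomes leave it exposed, so promoters and enhancers in use give peaks of cut ends, and short protected stretches inside a peak (footprints) mark where a protein may sit. In the fetal liver, erythroblasts ripen around central macrophages, condense the nucleus, expel it and become reticulocytes. Reticulocytes then remove mitochondria by autophagy, in which a membrane grows around cargo and is delivered to the lysosome, and remove ribosomes and other proteins through ubiquitin and the proteasome. FOXO3, GATA1 and KLF1 are transcription factors known to act on genes of this program.

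Replicate 1 had 47198 peaks and 123897 footprints, and replicate 2 had 36523 and 94430. Within 50 kb of the 10 genes lay 117 peaks in replicate 1 and 98 in replicate 2. A peak's value is the authors' signal, whose scale between libraries the sources used here do not give, so values are set side by side. Each value is a whole multiple of 1 step, 0.0123 in replicate 1 and 0.0139 in replicate 2. The 95% Poisson intervals in brackets read 1 step as 1 read, which is an assumption, and cover counting error only. As a check of the labelled tissue, promoters of marker genes were read. Of 7 erythroid ones, 6 were open in both libraries, against 54.1% of all protein-coding genes. The exception, Alas2, had a peak in replicate 1 alone. The counts were 2 of 6 for hepatoblast, 1 of 6 for macrophage, 1 of 4 for megakaryocyte, 1 of 4 for endothelial and 0 of 4 for lymphoid markers. Among hepatoblast markers Foxa3 (9.41 and 4.33) and Afp (1.15 and 0.624) were open in both, Ttr in replicate 1, and Alb, Hnf4a and Dlk1 in neither.

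The sequences of 9 peaks that carry the results are shown first. They were read from the GRCm38 (mm10) reference on the strand of the gene, 5′ to 3′, limited to the stretch outside exons. Capitals mark motif words that lay in a footprint of at least 1 library, widened by 5 bases on each side. The words were GATA (read as AGATAA or TGATAA), the pair GATA with E-box (CTG, 8 or 9 bases, then GATAA), E-box (CAGNTG), KLF (CCNCNCCC), SP (GGGCGG), NFE2 (GCTGAGTCA or GCTGACTCA), AP-1 (TGAGTCA or TGACTCA), ETS (CCGGAAG), NFY (CCAAT), CRE (TGACGTCA), HRE (TACGTG or GACGTG or TGCGTG) and CTCF (AGGGGGC or AGGTGGC or AGAGGGC or AGATGGC). Both strands were searched. KLF and SP words can share bases, every NFE2 word holds an AP-1 word, and a GATA word can be part of a GATA with E-box match. A match is a description of the letters, not a site. Positions are counted from 1 at the first base printed.

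The first 3 are promoters, shown because they hold the 2 highest peaks of the 10 genes in replicate 1 and the only ETS word of a promoter footprint seen in both libraries.
Bnip3l, chr14:67008878-67009080, minus strand: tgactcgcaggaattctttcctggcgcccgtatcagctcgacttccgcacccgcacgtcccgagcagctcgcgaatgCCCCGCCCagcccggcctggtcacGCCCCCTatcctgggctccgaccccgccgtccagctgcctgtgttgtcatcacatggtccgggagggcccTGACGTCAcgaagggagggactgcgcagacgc
Ulk1, chr5:110810098-110810280, minus strand: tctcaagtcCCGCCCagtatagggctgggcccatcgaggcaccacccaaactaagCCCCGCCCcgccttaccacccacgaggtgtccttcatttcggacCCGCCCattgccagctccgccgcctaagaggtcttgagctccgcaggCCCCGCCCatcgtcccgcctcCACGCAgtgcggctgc
Gabarapl2, chr8:111940581-111940702, plus strand: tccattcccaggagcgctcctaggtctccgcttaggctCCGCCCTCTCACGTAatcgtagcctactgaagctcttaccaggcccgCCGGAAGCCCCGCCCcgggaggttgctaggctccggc
The Bnip3l stretch holds a KLF word at positions 78 to 85, a CTCF word at 102 to 108 and a CRE word at 172 to 179, each in footprints of both libraries. The Ulk1 stretch holds KLF words at 56 to 63 and 147 to 154, a further SP word at 100 to 105 and an HRE word at 168 to 173, again in both. In the Gabarapl2 stretch an ETS word at 86 to 92 stands directly before a KLF word at 93 to 100. Without widening, the HRE word of Ulk1 and the ETS word of Gabarapl2 lay in footprints of replicate 1 alone, and the other words named here still in both.

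The next 6 are a promoter peak within an intron of Trim58 and 5 distal sites, shown because they hold GATA or NFE2 words in footprints or, for Map1lc3b, the highest distal peak.
Trim58 intron, chr11:58641101-58641340, plus strand: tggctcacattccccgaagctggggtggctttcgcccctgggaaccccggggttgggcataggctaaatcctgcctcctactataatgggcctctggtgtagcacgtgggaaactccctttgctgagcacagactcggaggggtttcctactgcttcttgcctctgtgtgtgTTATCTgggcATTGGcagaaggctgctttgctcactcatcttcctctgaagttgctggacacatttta
Foxo3 intron, chr10:42265081-42265340, minus strand: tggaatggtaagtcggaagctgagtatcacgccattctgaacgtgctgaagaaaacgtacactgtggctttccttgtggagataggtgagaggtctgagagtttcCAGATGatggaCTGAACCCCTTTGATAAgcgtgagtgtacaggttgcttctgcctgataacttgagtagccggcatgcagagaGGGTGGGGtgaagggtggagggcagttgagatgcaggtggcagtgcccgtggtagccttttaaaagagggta
Xpo7 intron, chr14:70713101-70713320, minus strand: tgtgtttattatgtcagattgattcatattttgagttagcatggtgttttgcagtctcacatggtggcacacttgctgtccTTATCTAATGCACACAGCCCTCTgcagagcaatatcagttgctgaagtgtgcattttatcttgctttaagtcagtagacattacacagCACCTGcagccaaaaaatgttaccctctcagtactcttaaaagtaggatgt
Foxo3 intron, chr10:42244501-42244760, minus strand: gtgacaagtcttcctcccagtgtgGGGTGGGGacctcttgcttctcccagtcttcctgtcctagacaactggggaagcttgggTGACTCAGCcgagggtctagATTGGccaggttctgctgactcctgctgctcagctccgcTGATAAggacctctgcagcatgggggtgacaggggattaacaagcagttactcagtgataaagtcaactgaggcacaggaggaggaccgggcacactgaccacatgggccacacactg
Ube2o intron, chr11:116571961-116572200, minus strand: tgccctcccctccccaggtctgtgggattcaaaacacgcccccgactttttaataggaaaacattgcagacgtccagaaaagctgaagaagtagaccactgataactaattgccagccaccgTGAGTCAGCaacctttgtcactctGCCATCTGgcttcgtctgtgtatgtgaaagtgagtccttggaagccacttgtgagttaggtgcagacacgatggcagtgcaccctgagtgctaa
Map1lc3b upstream, chr8:121585461-121585700, plus strand: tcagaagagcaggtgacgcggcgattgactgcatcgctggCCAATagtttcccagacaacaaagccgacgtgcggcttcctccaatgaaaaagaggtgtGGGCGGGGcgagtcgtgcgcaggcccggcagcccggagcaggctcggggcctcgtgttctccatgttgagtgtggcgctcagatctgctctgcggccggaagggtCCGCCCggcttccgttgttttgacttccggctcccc
The Trim58 intron has a GATA word at positions 173 to 178 and the Foxo3 intron at chr10:42265081 has one at 128 to 133, both in footprints of both libraries. The GATA with E-box matches at 117 to 133 of that Foxo3 site and at 82 to 98 of the Xpo7 site lay in a footprint of replicate 1 alone. NFE2 words at 84 to 92 of the other Foxo3 site and at 123 to 131 of the Ube2o site lay in footprints of both libraries. The Map1lc3b site has an NFY word at 41 to 45, a KLF word at 100 to 107 and an SP word at 205 to 210, all in both. With footprints not widened, of the words named for these 6 sites the KLF word of Map1lc3b alone lay in footprints of both libraries. The Trim58 GATA word was then in replicate 1 alone, the Ube2o NFE2 word in replicate 2 alone, and the Foxo3 words in neither.

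All 10 genes had a promoter peak in both libraries. Over all protein-coding genes the share was 58.5% in replicate 1, 55.4% in replicate 2 and 54.1% in both. All 10 were also open in both shorter lists, against 48.8% of genes. Of the 10, 8 had at least 2 promoter peaks in each library, against 45.2% of the 11868 genes open in both. The 10 genes have more annotated starts than most, with a median of 4.5 (1 to 11) against 3. The highest promoter peak of each of the 10 lay wholly within stretches whose deposited false discovery rate was under 0.05. The lowest rate in that peak ran from 4.08e-116 at Bnip3l to 1.43e-06 at Xpo7 in replicate 1, and from 3.83e-39 at Bnip3l to 3.09e-06 at Xpo7 in replicate 2.

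By height the 10 promoters spread over most of the range of open genes. The median of the highest promoter peak was 8.37 in replicate 1 and 3.75 in replicate 2, against 5.21 and 3.60 over all open genes. In each library's ranking of open genes, the members' median stood at the percentiles 67.7 and 52.2. Of the 10, 5 were over the median in both libraries (Bnip3l, Ulk1, Foxo3, Map1lc3b and Gabarapl2), against 47.7% of genes open in both. The members' share is close to that background.

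**Figure D1:**
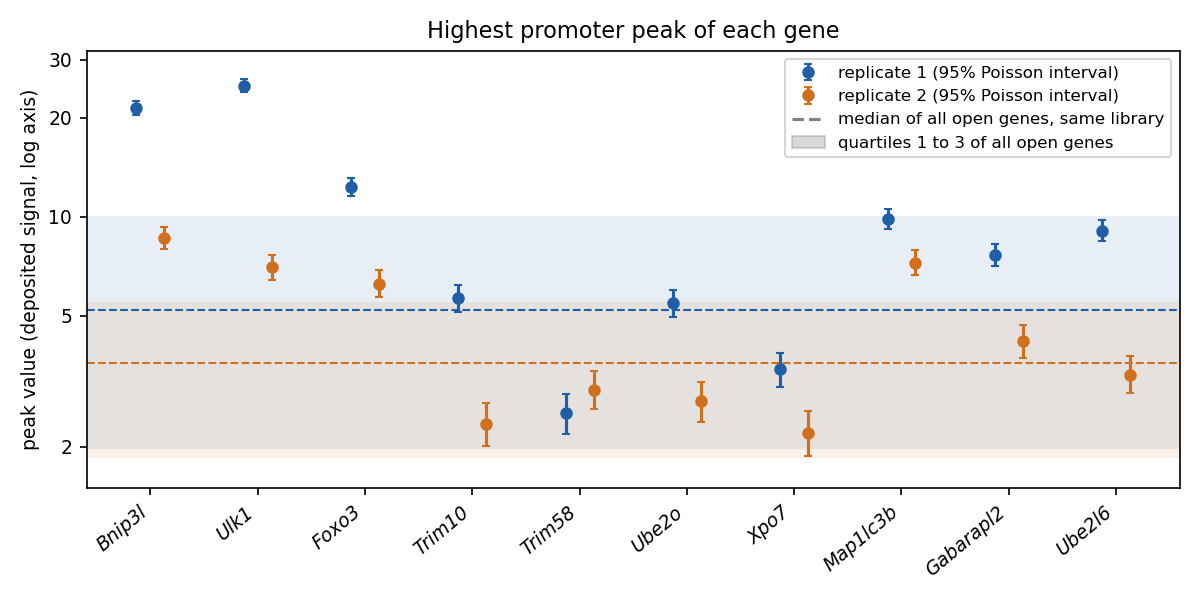
Value of the highest promoter peak of each of the 10 genes (log axis) in replicate 1 (blue) and replicate 2 (orange), with 95% Poisson intervals. Dashed lines are the medians of all open genes and shaded bands the span from quartile 1 to quartile 3, in the same library's colour. Bnip3l, Ulk1 and Foxo3 stand above the band of their library in both, at 21.4, 25.1 and 12.3 in replicate 1, and Trim58 is the 1 gene whose point is higher in replicate 2, where it is the start peak and not, as in replicate 1, the intron peak. In replicate 1 the intervals of these Trim58 peaks overlap.

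Among the genes that start and steer autophagy, Bnip3l encodes the receptor on the outer mitochondrial membrane that hands mitochondria to autophagosomes in reticulocytes. The gene (chr14:66985239-67008877, minus strand) has 7 annotated starts. Its main peak covered the first start (chr14:67008861-67009080 in replicate 1) and replicate 1 gave it a value of 21.4 [20.4 to 22.4], replicate 2 one of 8.64 [7.97 to 9.34]. Those values rank at the percentiles 97.5 and 96.8 of open genes, and the peak held 4 footprints in each library. A smaller peak at an inner start of the gene had 1.11 and 0.984. Bnip3l had no distal peak in either library, so all of its called peaks within 50 kb lay at its own starts. Of the bases with a listed false discovery rate in its window, 780 of 1370 in replicate 1 and 420 of 1342 in replicate 2 lay in called peaks.

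Ulk1, the kinase that begins autophagosome formation (chr5:110784488-110810097, minus strand, 11 starts), had the highest promoter of the 10 in replicate 1. The peak over its first start had 25.1 [24.0 to 26.2] in replicate 1 against 7.01 [6.42 to 7.65] in replicate 2, at the percentiles 99.05 and 89.0. It was the highest of the 10 in replicate 1 and came after 2 others in replicate 2, Bnip3l and Map1lc3b. An intron site 1517 bases from the first start (chr5:110808361-110808580) had 4.87 [4.40 to 5.37] and 3.80 [3.36 to 4.28], and was its only distal peak in both libraries. That intron site held 4 footprints in replicate 1 and 0 in replicate 2.

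Foxo3, the forkhead factor that drives antioxidant and autophagy genes in maturing erythroblasts (chr10:42181841-42276755, minus strand), had many sites along the gene. Its highest promoter peak did not cover the first start but lay 866 bases upstream of it in replicate 1 and 986 in replicate 2, with 12.3 [11.6 to 13.1] and 6.27 [5.70 to 6.87]. The peak over the first start had 5.43 [4.94 to 5.97] and 4.13 [3.68 to 4.63]. Next to the former, a distal site at chr10:42278061-42278280, 1306 bases upstream, had 7.29 [6.72 to 7.91] and 4.89 [4.40 to 5.43]. Foxo3 had 9 shared distal peaks, 6 of them within the gene, of which 2 overlap each other. The intron site with the NFE2 word had 4.62 [4.16 to 5.11] in replicate 1 against 2.09 [1.77 to 2.45] in replicate 2, and the one with the GATA word 3.25 [2.87 to 3.67] against 1.75 [1.46 to 2.08]. Another intron site, chr10:42273781-42274240, had 12 footprints in replicate 1 and 3 in replicate 2, with values of 3.11 [2.73 to 3.51] and 2.88 [2.50 to 3.30]. Some listed peaks at the start of Foxo3 overlap each other and are not separate sites.

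The ubiquitin-like proteins of the ATG8 family, LC3B and GATE-16, are coupled to lipid on the growing membrane and bind cargo receptors such as the Bnip3l protein. Map1lc3b, which encodes LC3B (chr8:121590361-121598760, plus strand), had a promoter peak of 9.87 [9.20 to 10.6] in replicate 1 against 7.25 [6.64 to 7.90] in replicate 2. These stand at the percentiles 74.1 and 90.5. A distal site 4661 bases upstream of the gene had 19.1 [18.1 to 20.04] and 6.24 [5.67 to 6.84]. It was higher than the promoter in replicate 1, without overlap of the intervals, while in replicate 2 the intervals of both overlap. Among all distal peaks it ranked at the percentiles 99.9 and 99.5, and it was the highest distal peak near any of the 10 genes in each library. No annotated start of any gene, non-coding genes included, lies within 1 kb of it.

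Gabarapl2, which encodes GATE-16 (chr8:111940703-111953612, plus strand), had 7.66 [7.07 to 8.29] and 4.19 [3.73 to 4.69] at its first start, at the percentiles 64.5 and 58.2. A second promoter peak 563 bases upstream in replicate 1 had 3.54 [3.14 to 3.97], and its counterpart in replicate 2 had 1.61 [1.33 to 1.93]. The single shared distal peak, 10743 bases upstream in replicate 1, was low, at 1.39 and 0.901. Of both ATG8 genes, then, Map1lc3b ranked higher at the promoter in each library.

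Among the genes of the nucleus and of enucleation, Xpo7 encodes an exportin needed for the nuclear condensation of erythroblasts (chr14:70654246-70766628, minus strand). Its promoter had 3.44 [3.05 to 3.87] in replicate 1 against 2.20 [1.87 to 2.57] in replicate 2, at the percentiles 37.2 and 30.04. A start of Dok2, a signalling adaptor of blood cells, lies within 1 kb of the same peak, so the value is not that of Xpo7 alone. Xpo7 had 3 shared distal peaks. The highest lay 30106 bases past the end of the gene between start peaks of Dmtn, which encodes the red cell skeleton protein dematin, with 6.04 [5.51 to 6.60] and 2.65 [2.29 to 3.05]. It exceeded the Xpo7 promoter in both libraries. A site 14234 bases upstream had 2.66 [2.32 to 3.04] and 2.07 [1.75 to 2.43], and the intron site with the GATA word had 1.34 [1.10 to 1.62] and 0.762 [0.574 to 0.992].

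Trim58 encodes a ubiquitin ligase that acts on the motor protein dynein and aids enucleation (chr11:58640465-58652404, plus strand, 1 start). It was the 1 gene of the 10 whose highest promoter peak was a different site in each library. The peak over the start had 2.01 [1.71 to 2.34] in replicate 1 but 2.98 [2.60 to 3.41] in replicate 2. The intron peak with the GATA word, 636 bases downstream, had 2.53 [2.19 to 2.90] and 1.36 [1.10 to 1.66]. Further intron sites at chr11:58641721-58641940 and chr11:58643501-58643700 had 4.79 [4.33 to 5.29] and 5.52 [5.02 to 6.06] in replicate 1. In replicate 2 they had 1.93 [1.62 to 2.28] and 2.59 [2.23 to 2.99]. The start was the lowest of the 4 sites in replicate 1 and the highest in replicate 2, where its interval overlaps that of the farthest intron site. In replicate 1 its interval overlaps that of the intron peak with the GATA word, and whether these promoter peaks differ was not tested.

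Trim10, a TRIM family protein of the erythroid lineage (chr17:36869574-36877833, plus strand, 1 start), had 5.64 [5.14 to 6.18] and 2.34 [2.00 to 2.72] at its promoter, at the percentiles 52.85 and 32.02. Its promoter footprints held no KLF or SP word in either library. Both of its shared distal peaks lay over 36 kb from the gene and were low, with 1.17 and 0.826 in replicate 1 and 0.610 and 0.832 in replicate 2.

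Of the ubiquitin-conjugating enzymes, Ube2o, which tags ribosomal and other proteins for removal in reticulocytes (chr11:116537740-116581447, minus strand), had 5.46 [4.96 to 5.99] and 2.74 [2.38 to 3.15] at its first start. These stand at the percentiles 51.5 and 37.8. A second promoter peak 347 bases downstream had 3.17 [2.79 to 3.58] in replicate 1, and its counterpart 1.65 [1.37 to 1.97] in replicate 2. Ube2o had 8 shared distal peaks and 9 more in replicate 1 alone, against 0 in replicate 2 alone. Its highest were chr11:116615721-116615940, 34274 bases upstream, with 3.84 [3.43 to 4.30] and 2.59 [2.23 to 2.99], and chr11:116625701-116625880, 44254 bases upstream, with 3.57 [3.17 to 4.01] and 2.25 [1.91 to 2.62]. They flank a peak at a start of Rhbdf2, and which gene they act on was not tested. The intron site with the NFE2 word had 3.36 [2.98 to 3.79] and 1.68 [1.39 to 2.00].

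Ube2l6, an E2 enzyme for the ubiquitin-like protein ISG15 and for ubiquitin (chr2:84798828-84810335, plus strand), had 9.07 [8.43 to 9.75] in replicate 1 against 3.31 [2.91 to 3.76] in replicate 2. The percentiles were 71.0 and 46.2, so it was above the median in replicate 1 and below it in replicate 2. All 5 of its shared distal peaks lay downstream of the gene. The nearest, 606 bases past its end in replicate 1 (chr2:84810941-84811140), had 6.40 [5.86 to 6.97] and 2.97 [2.58 to 3.39]. A neighbour at chr2:84811921-84812240 had 6.26 [5.73 to 6.83] and 2.12 [1.80 to 2.48], and a farther one at chr2:84842061-84842260 had 5.50 [5.0 to 6.03] and 3.01 [2.62 to 3.44].

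Away from starts, the 10 genes had 33 shared distal peaks in all, a mean of 3.3 and a median of 2 per gene, against a mean of 1.26 and a median of 1 over all protein-coding genes. Of the 10, 9 had at least 1 shared distal peak, against 54.7% of genes, and 4 (Foxo3, Ube2o, Ube2l6 and Xpo7) had at least 3, against 16.9%. These shares are over all genes, open or not. Of the 11868 genes open in both libraries, 7946 had a shared distal peak. The 99 other genes of the same processes or gene families, listed below, had a mean of 1.98, from 1.2 to 2.89 by list. The 7 erythroid markers had a mean of 6.14, with 26 at Slc4a1, 6 at Ank1, 4 at Tfrc and 1 or 2 at each of the rest. The other marker lists had means of 0.75 to 1.67. Foxo3 with 9, overlapping peaks counted singly, and Ube2o with 8 stood at the percentiles 99.4 and 99.0 of all genes, Ube2l6 with 5 at 94.9. Several Foxo3 peaks lay not far past the 1 kb limit of promoter peaks. Those starting at chr10:42273781, 42274421, 42274661 and 42278061 lay 2515, 2055, 1557 and 1306 bases from its first start in replicate 1. In replicate 2 the last of these directly adjoins a promoter peak. Longer genes have wider windows, and Foxo3 and Xpo7 span 94915 and 112383 bases. Bnip3l had 0, so the count is carried by few genes. Within 20 kb of the genes the total was 20.

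**Figure D2:**
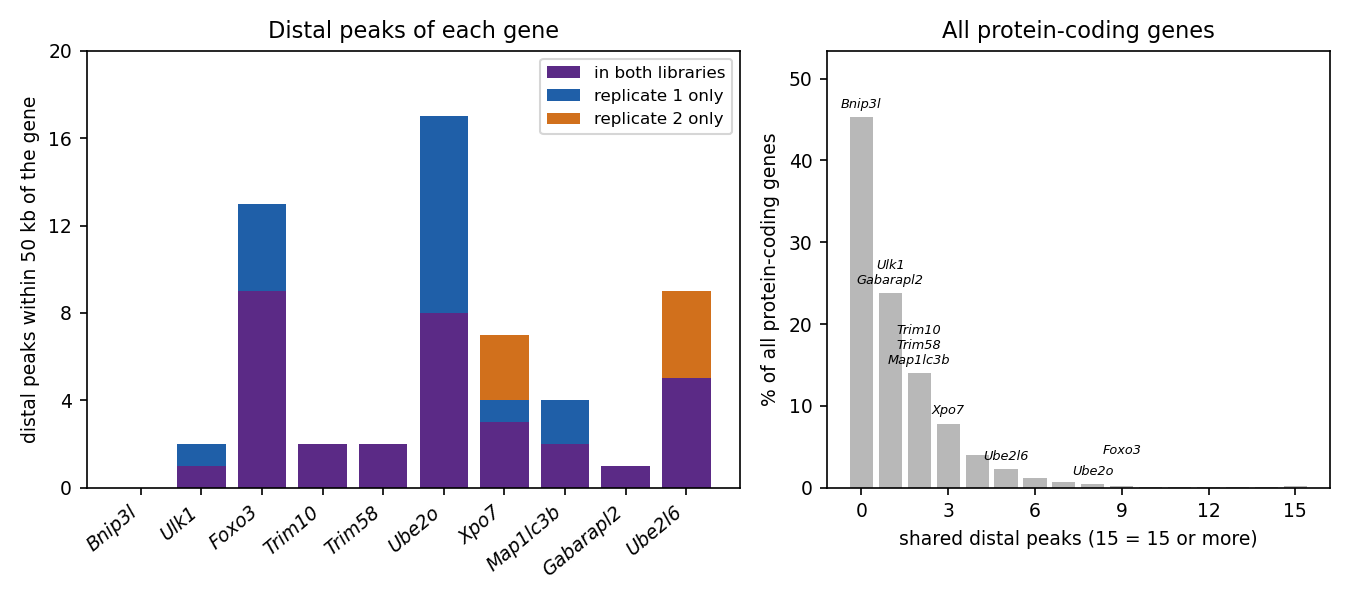
Left, distal peaks within 50 kb of each gene, stacked by whether they were called in both libraries, in replicate 1 alone or in replicate 2 alone. Right, the share of all protein-coding genes by their number of shared distal peaks, with the 10 genes named above their bar; Foxo3 and Ube2o lie far out, with 9 and 8.

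Distal peaks of the 10 genes had a median value of 1.61 in replicate 1 and 1.61 in replicate 2, against 0.912 and 0.901 over all distal peaks. Of the 50 and 40 such peaks, 17 in replicate 1 and 7 in replicate 2 had no overlap in the other library. The share without overlap over all distal peaks was not computed. By pairs that overlapped 1 to 1, the 10 genes had 31 among their 50 and 40 distal peaks. All distal peaks had 11034 such pairs among 23041 in replicate 1 and 14888 in replicate 2. The unshared distal peaks of the 10 genes were lower, with medians of 1.11 and 0.707 against 2.66 and 1.72 for the shared ones. Their spread among genes was uneven. Ube2o and Foxo3 held 13 of the 17 in replicate 1, with 9 and 4, and Ube2l6 and Xpo7 held all 7 in replicate 2, with 4 and 3.

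**Figure D3:**
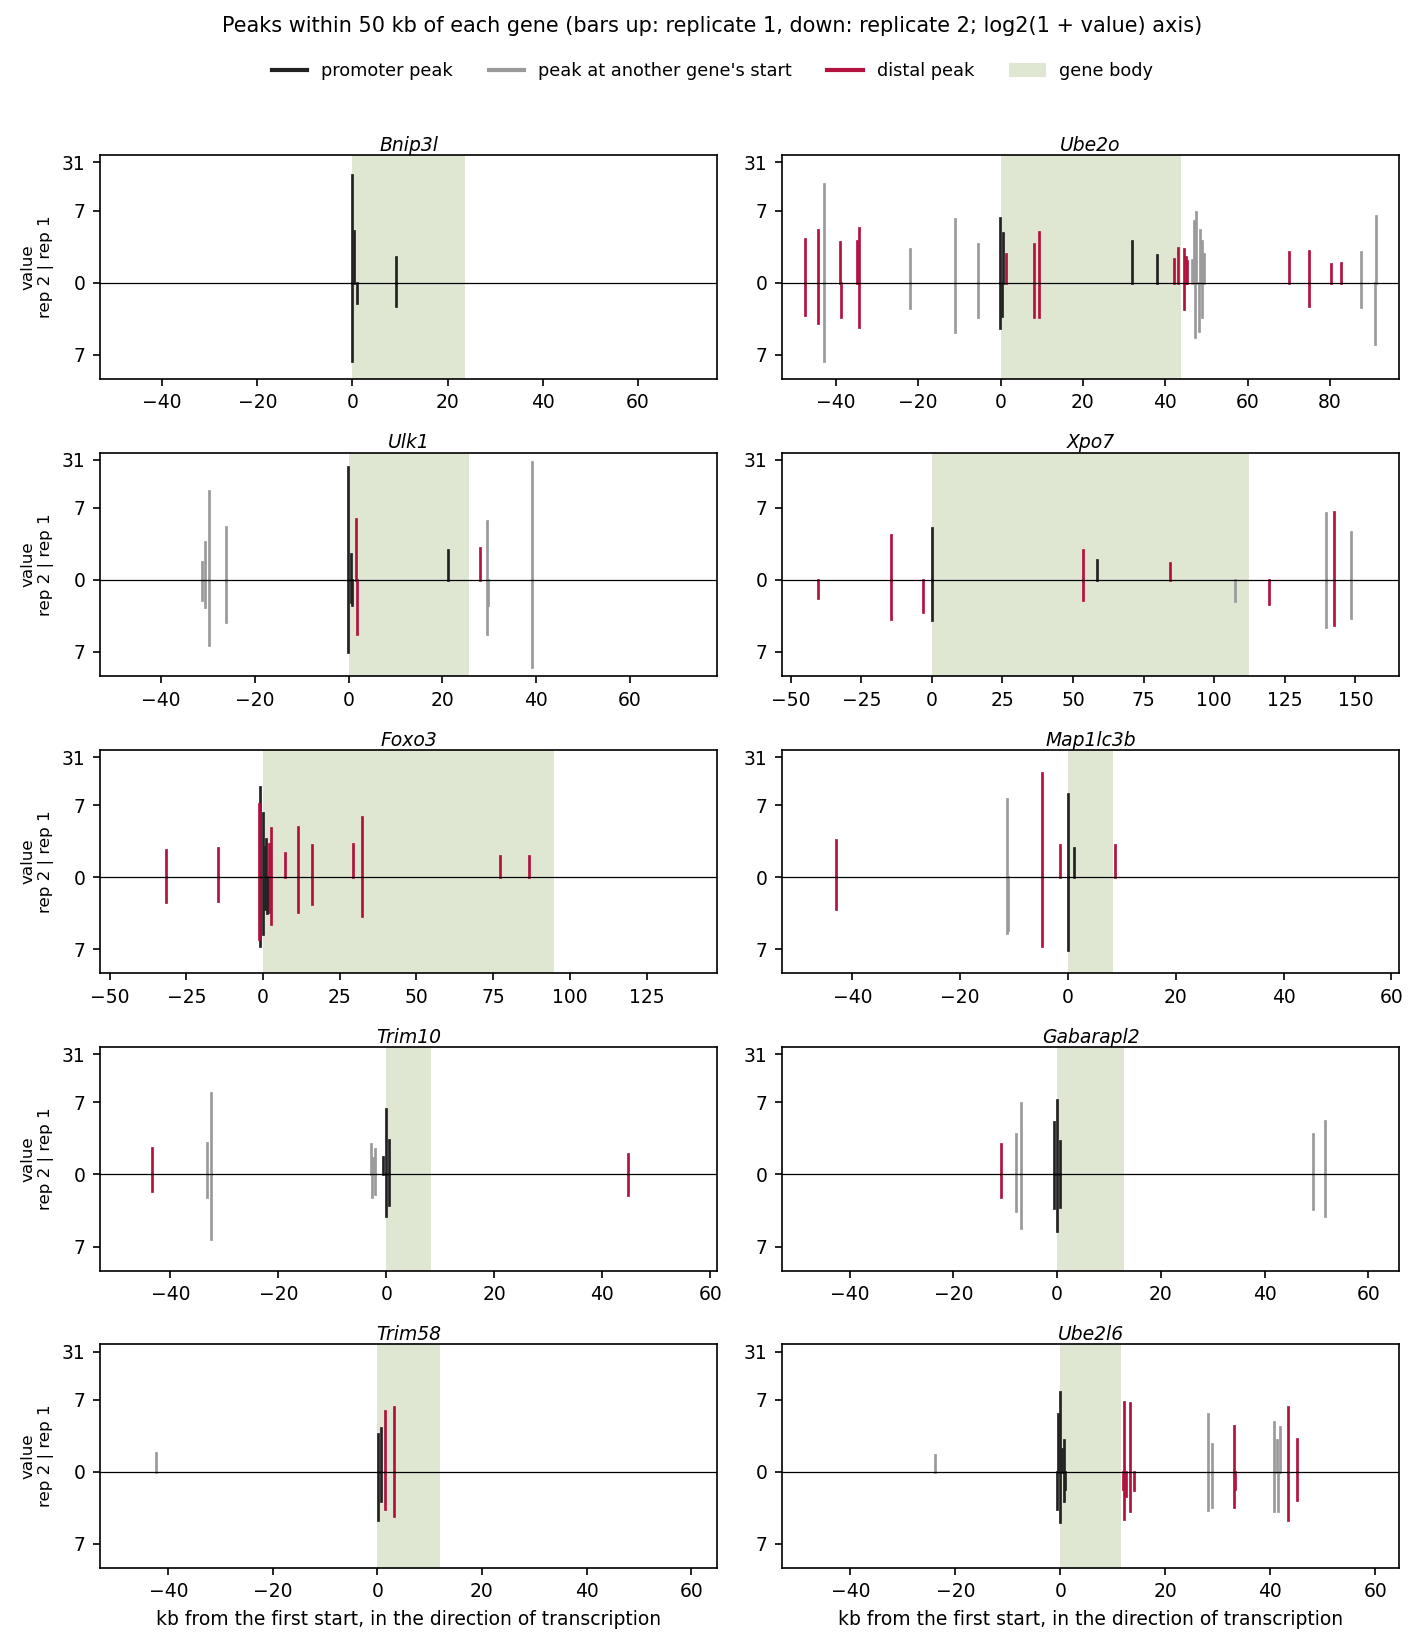
Peaks within 50 kb of each gene by distance from the first start in kb, in the direction of transcription; bars rise for replicate 1 and fall for replicate 2, on an axis of log2(1 + value). Bnip3l shows peaks at its own starts alone, Map1lc3b a tall distal bar upstream of its start, and Foxo3 and Ube2o many distal bars.

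In 9 of the 10 genes a shared distal peak could be set against the promoter. The highest one exceeded the highest promoter peak in 3 genes in replicate 1 (Trim58, Xpo7 and Map1lc3b), against 21.7% of such genes. In replicate 2 it did so in 1 gene (Xpo7), against 19.5%, and in both libraries in the same 1 gene, against 16.5%. For Trim58 and Map1lc3b the promoter had the higher value in replicate 2, but there the intervals of promoter and distal site overlap. Overlap of intervals is not a test, and whether these values differ was not tested.

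The ratio of replicate 2 to replicate 1 was mostly below 1 at these genes, as it was elsewhere. Across the 19 promoter peaks of the 10 genes that overlapped 1 to 1, the median log2 ratio was -0.89 and 18 were below 0. All start peaks had a median of -0.55, with 84.3% below 0. Since the ratio falls with height in all peaks, the median of shared peaks of like height was taken off, and the members' median was then -0.08, with 11 of 19 below 0, against 0.05 and 44.6% over all start peaks. For the 31 distal pairs the median log2 ratio was -0.63, against -0.43 over all distal peaks, and -0.15 after taking off the peaks of like height, against -0.08.

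Single sites stood farther from that line. The Trim58 start had a log2 ratio of 0.57, which was 1.10 above peaks of like height and at the percentile 99.6 of all pairs, while its intron site at chr11:58641721 was 0.74 below, with an excess of -0.74 (percentile 3.6). The Map1lc3b promoter had an excess of 0.56 and its upstream site -0.44. Low excess ratios were found at the promoters of Ube2l6 (-0.69), Trim10 (-0.67) and Ulk1 (-0.57), and the lowest of these pairs at the Ube2l6 downstream site chr2:84811921 (-0.96, percentile 1.1). With 1 library on each side these ratios have no replicate check.

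**Figure D4:**
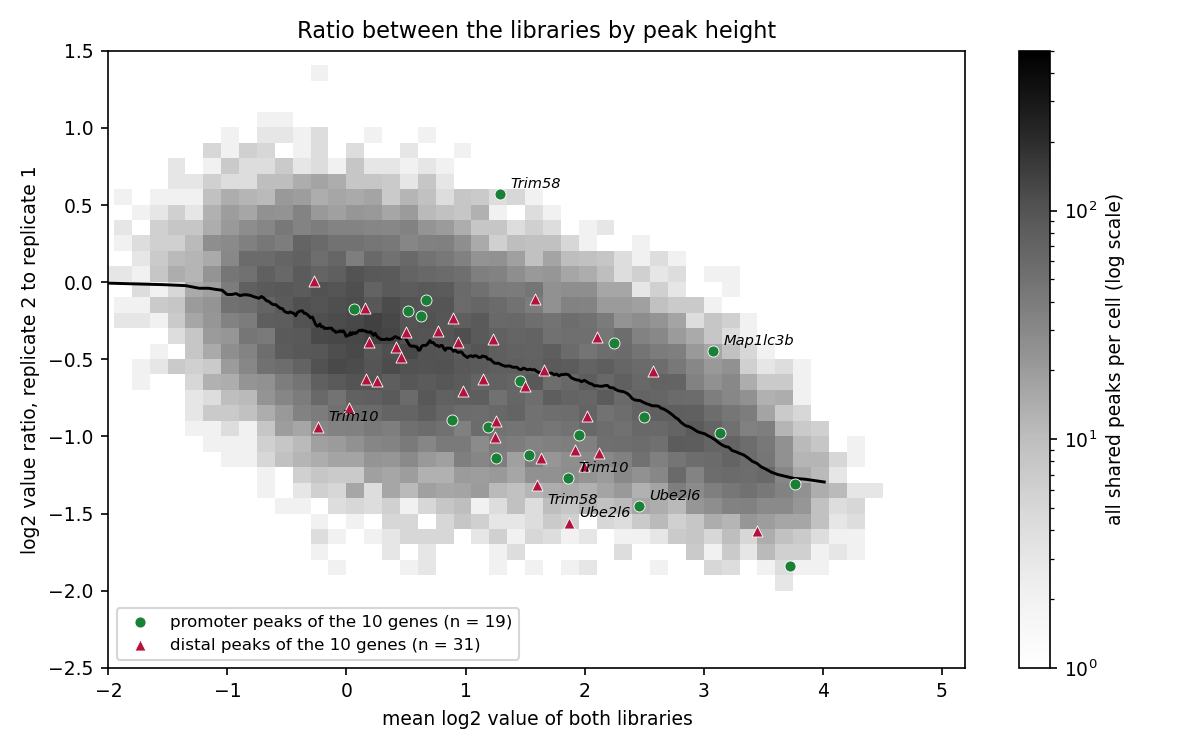
Log2 value ratio of replicate 2 to replicate 1 against the mean log2 value, for all 26687 peaks that overlapped 1 to 1 (grey cells, log colour scale) with the running median (black line). Green circles are the 19 promoter pairs and red triangles the 31 distal pairs of the 10 genes; the Trim58 start lies far above the line, at 0.57.

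All 10 genes had a footprint in a promoter peak in both libraries, which is also true of 94.2% of genes open in both. In promoter peaks, 81 footprints were found in replicate 1 and 68 in replicate 2, and in distal peaks 137 and 78. Of the promoter footprints of replicate 1, 43.2% overlapped one of replicate 2, against 48.2% over all footprints of start peaks. For distal footprints the shares were 29.2% and 27.2%. The other way, they were 60.3% against 60.3% at promoters and 52.6% against 51.6% at distal peaks. Footprints of the 10 genes thus recurred between libraries about as often as footprints in general.

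The promoters were also described by their letters. In 7 of the 10 genes the observed count of CG steps in 1000 bases around the first start was over 0.6 of the expected, against 46.0% of all genes and 73.2% of genes open in both libraries. The members' share is close to that of open genes. Below it were Trim10 at 0.174, Trim58 at 0.492 and Ube2l6 at 0.506. A KLF word lay in a promoter footprint of both libraries in 7 genes (Bnip3l, Ulk1, Foxo3, Ube2o, Xpo7, Gabarapl2 and Ube2l6), against 42.2% of genes open in both. An SP word did so in 7 genes, with Map1lc3b in place of Xpo7, against 46.6%. A GATA word did so in Trim58 alone, against 0.741% of genes, and without widening in no member, against 0.135%. Without widening the KLF word remained in the same 7 genes, against 24.99% of genes, and the SP word in 6 (all but Map1lc3b), against 30.99%. Gene shares also depend on the number of promoter peaks, and the 10 genes more often had at least 2. Per widened promoter footprint, KLF words were found in 16.0% and 17.6%, against 17.0% and 13.3% over all footprints of start peaks. SP words were found in 24.7% and 23.5%, against 18.2% and 15.3%. No member had an NFE2 or FOXO word (GTAAACA) in promoter footprints of both libraries, words that 0.101% and 0.0421% of open genes had there.

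In distal footprints of the 10 genes, GATA words were found in 6 of 137 footprints in replicate 1 (4.38%) and 3 of 78 in replicate 2 (3.85%), against 2.62% and 1.77% over all distal footprints. These counts rest on few sites; without widening they were 4 and 0. KLF words were found in 13.1% and 10.3%, against 7.55% and 5.01%, in 18 and 8 footprints that became 5 and 1 without widening. CTCF words were found in 10.2% and 11.5%, against 13.7% and 13.9%, in 14 and 9 footprints that became 7 and 6. In 200-base windows at the middle of distal peaks, with no use of footprints, a GATA word was found in 19 of 50 windows in replicate 1 and 12 of 40 in replicate 2. Over all distal peaks the shares were 23.9% and 20.6%, against 38% and 30% here. A GATA with E-box match was found in 9 and 5 windows, or 18% and 12.5%, against 5.63% and 4.29%. Of those windows in replicate 1, Ube2o and Xpo7 held 2 each, and Foxo3, Trim58, Map1lc3b, Gabarapl2 and Ube2l6 1 each. KLF words were found in 50% and 35% of distal windows, against 32.6% and 29.5%. NFE2 words were found in 4 and 3 windows, or 8% and 7.5%, against 2.27% and 2.24%. All of these were windows of Ube2o (3 and 2) and Foxo3 (1 and 1). CTCF words were found in 36% and 47.5%, against 41.6% and 42.7%. The distal peaks of the 10 genes were higher than distal peaks in general, so these shares do not compare peaks of like height. Windows of shared peaks hold much the same sequence in both libraries and are not separate evidence.

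**Figure D5:**
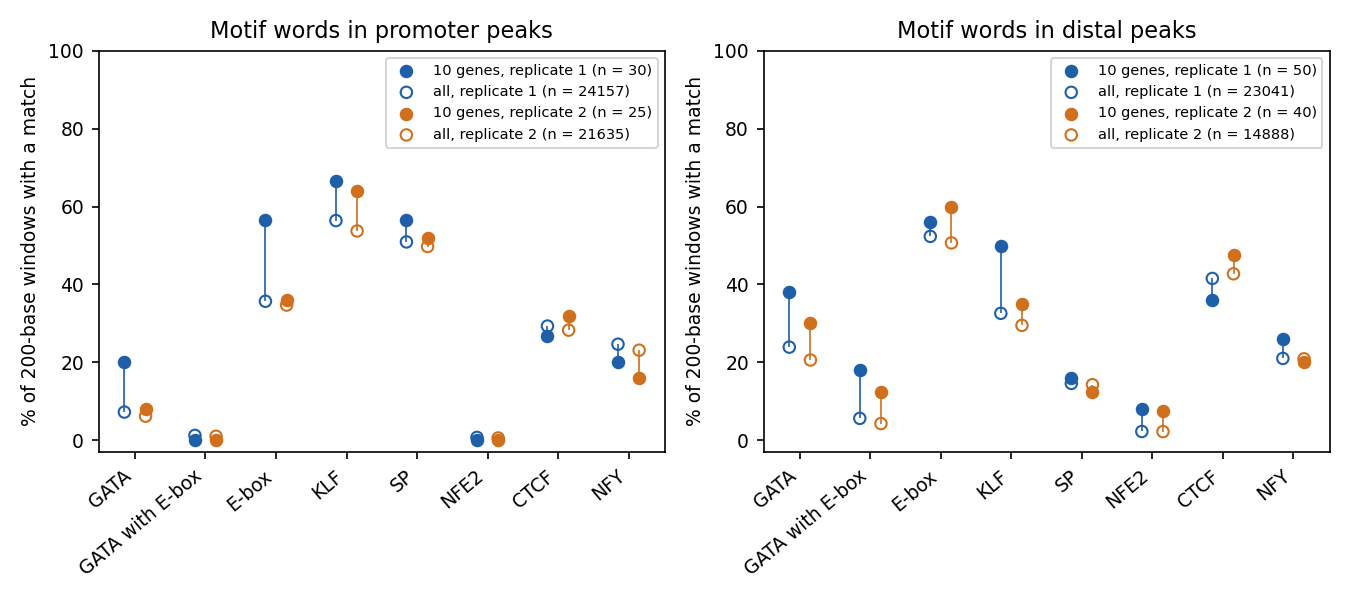
Share of 200-base windows at peak middles that hold each motif word, for promoter peaks (left) and distal peaks (right). Filled points are the 10 genes and open points all peaks of that class, blue for replicate 1 and orange for replicate 2. GATA words in distal windows stand at 38% and 30% for the 10 genes, against 23.9% and 20.6%. KLF words there stand at 50% and 35%, against 32.6% and 29.5%.

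Listed by name were 99 other genes of the same processes or gene families. Of these, 95 had promoters open in both libraries and 4 in neither, against 54.1% of all protein-coding genes. All 16 genes of autophagy initiation were open, led by Atg2a (19.0 and 8.23), Wipi1 (24.7 and 7.29) and Wipi2 (16.4 and 8.30), which act where the autophagosome membrane grows. All 13 genes of LC3 and GABARAP conjugation were open, led by the protease Atg4d (23.8 and 8.33). The ATG8 gene Map1lc3a, with 11.3 and 5.61, stood near Map1lc3b. Of the 13 mitophagy and selective receptor genes 12 were open, among them Fkbp8 (13.7 and 8.19), Nbr1 (12.7 and 5.68) and Bcl2l13 (11.4 and 6.09), none as high as Bnip3l in replicate 1. The exception was Alox15, a lipoxygenase known from reticulocytes, with no promoter peak in either library.

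All 16 genes of nuclear condensation and enucleation were open, among them the formin Diaph3 (15.9 and 8.26) and the myosin Myh10 (14.3 and 6.28). All 10 exportins and importin relatives were open, and Kpnb1 (19.5 and 10.04), Xpo1 (19.8 and 9.54) and Xpot (16.1 and 7.01) each stood above Xpo7. Of 14 genes of ubiquitin and ISG15 conjugation 13 were open, led by Ube2h (24.4 and 10.1), Cand1 (17.9 and 8.71) and Ubb (16.2 and 7.50). Isg15, whose product Ube2l6 transfers, had no promoter peak in either library. Of 9 TRIM genes 7 were open, led by Trim28 (7.69 and 8.46), Trim26 (9.36 and 5.35) and Trim27 (5.54 and 4.34), while Trim31 and Trim40 had none. All 8 FOXO and lysosome genes were open, led by Lamp1 (12.9 and 6.89), Tfeb (10.7 and 5.75) and Foxo6 (7.39 and 3.31).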

How the data were processed

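DNase-seq, which sequences DNA ends cut by DNase I in nuclei, was run on 2 libraries of 1 group. Per the file headers and the text deposited beside the tables, the authors made the tables of each library separately, from its filtered reads aligned to mm10. The sources used here do not give the peak caller, its version or its cut-off. The deposited peak value is the authors' signal per peak. The footprint score that the authors deposited is 0.01 throughout, and positions alone were taken. The deposited false discovery rate is of the q-value type, which is not a p-value, and is listed by the authors only under 0.05.

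Depth is not stated; if 1 step of the value is 1 read on a scale of 1000000 reads, it was 81.2 and 72.1 times 1000000 reads, and low peaks have the wider intervals. GENCODE vM21 gave gene bodies and starts, and RefSeq's GRCm38.p6 the sequences. A promoter peak lay within 1000 bases of any start of the gene. A distal peak lay over 1000 bases from any start of any gene and within 50000 bases of the gene body. Peaks sharing at least 1 base were shared. Ratios between libraries were also given less a running median over 1001 of the 26687 peaks that overlapped 1 to 1, ranked by mean log2 value (excess). Of the motifs, 20 were searched as exact words. No test was made, since there is 1 group. All 10 genes are named; each list of other genes gives up to 3 with the highest mean rank and those without a promoter peak, and up to 3 distal peaks per gene are given. A result under this rule is not reported here. The members, lists and motifs were chosen with earlier results of these data known. Intervals are exact Poisson. Python 3.11.15, numpy 2.4.6, pandas 2.3.3 and scipy 1.17.1 were used, and the functions were tested on simulated data. Alternatives were the shorter lists, the upper 50% of peaks, other windows, overlaps and footprint widths, summed promoter peaks and leaving out each replicate.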

Additional observations from a re-analysis of the deposited data

How the results depend on the processing

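All 10 promoters remained open in both libraries in every setting run, from the shorter lists and the upper 50% of peaks to windows of 500 and 2500 bases. The 33 shared distal peaks became 20 within 20000 bases of the genes, and without a replicate the count of distal peaks was 40 to 50. The median percentile of the highest promoter peak, 59.9 as the mean of both libraries, was 74.5 with promoter peaks summed per gene and 52.2 to 67.7 without a replicate. The median log2 ratio at promoters, -0.89, was -0.0779 after shared peaks of like height were taken off. Footprints with a GATA word, added up over the libraries and both peak classes, numbered 12, and were 5 without widening and 19 with 10 bases on each side. A word in footprints of each library counts more than once in these totals. The other values recomputed kept to within 1.5 times the main count, or, for the percentile, to within the spread between the libraries. No paired analysis was possible because the 2 libraries form 1 group. Neither depth nor the scale between the libraries is stated, so small differences between them cannot be weighed.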

Other observations

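Several of the 10 genes share their 50 kb window with higher promoters of other genes. The highest was the Ep400 start, a chromatin remodeller 13388 bases past the end of Ulk1, with 28.7 in replicate 1 and 11.4 in replicate 2, above Ulk1 itself in each library. The Rhbdf2 start upstream of Ube2o had 16.3 and 8.64, also above its neighbour's promoter. The start shared by Chek2 and Hscb upstream of Ulk1 had 12.2 and 5.52, below the Ulk1 promoter in each library. Near Map1lc3b the Fbxo31 start had 8.59 and 3.96, lower than the Map1lc3b promoter and than the distal site that lies between both genes. Dmtn, near Xpo7, had 5.82 and 2.88 at its highest start peak, above the Xpo7 promoter in both libraries. Trim26, in the TRIM cluster around Trim10, had 9.36 and 5.35, while Trim15, next to Trim10, had 1.38 and 0.929. Around Ube2l6, the Timm10 start had 4.33 and 2.05 and the Slc43a1 start 3.19 and 2.12, both below Ube2l6. Which of these genes the distal sites act on was not tested. Bnip3l and Foxo3 had no peak at another gene's start within the window in either library.

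Of the bases with a listed false discovery rate within the windows of the 10 genes, 57.5% of 46505 in replicate 1 and 61.8% of 41783 in replicate 2 lay in peaks of the longer list. The rest lay outside the called peaks.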
